A study of Drosophila melanogaster with 3 samples.

Results

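The regions described here were the 526 HmgD peaks that lay inside introns and away from promoters, out of 2964 peaks that passed the reproducibility (IDR) step in the deposited list on the dm6 build (17.7%). A peak was taken when its summit, the position of highest signal, was more than 500 bp from every annotated transcription start site (TSS), lay inside at least 1 gene and lay in no annotated exon. Of the remaining peaks, 2106 had a summit within 500 bp of a TSS, 253 were intergenic and 79 lay in exons. The data were chromatin immunoprecipitation followed by sequencing (ChIP-seq) with an anti-GFP antibody, in 3 biological replicates of 1 group. All 3 came from Drosophila melanogaster embryos of mixed sex, aged 0 to 24 h, of the strain HmgD-GFP, a transgenic line with GFP at the C terminus of HmgD. The age range spans all of embryogenesis and the material was whole embryos, so a peak in 1 cell type and a weaker peak in many cannot be told apart, and the peak lists hold no expression values against which a cell type could be checked.

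HmgD is an abundant chromosomal protein with 1 HMG box, a domain that inserts into the minor groove and bends DNA with little preference for sequence. Such proteins bind linker DNA and nucleosomes and are thought to loosen or reshape chromatin. In Drosophila, introns, above all long first introns of developmental genes, hold many of the enhancers, insulators and silencers that act on the promoter of the host gene or of its neighbours.

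The sequences shown reach from 100 bases before to 100 bases after the summit, on the plus strand of dm6 (Release 6 genome, RefSeq copy), for the 4 intronic peaks of highest signal and for the strongest peak with each of several words whose frequency is described further on, peaks on 1 chromosome arm (named with the methods) left out. Capitals mark matches, on either strand, to the 12 words searched. The windows are chr2L:480994-481194 in ush, chr3R:11760957-11761157 in Lk6, chr2L:6612623-6612823 in CG11050 and chr2L:3302084-3302284 in CG9663, the strongest. For words, they are chrX:3742106-3742306 in Tlk (A tract), chrX:2297623-2297823 in Raf (GCCATTT), chr3L:2531407-2531607 in Spn (CTCF core), chr3L:378072-378272 in trh (CA repeat), chrX:21053243-21053443 in Stt3A (Dref) and chr3R:11649565-11649765 in Csk (M1BP).
ush: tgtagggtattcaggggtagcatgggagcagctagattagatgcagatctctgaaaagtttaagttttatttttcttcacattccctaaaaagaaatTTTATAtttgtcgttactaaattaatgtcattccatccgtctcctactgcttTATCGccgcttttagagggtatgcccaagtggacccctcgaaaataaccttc
Lk6: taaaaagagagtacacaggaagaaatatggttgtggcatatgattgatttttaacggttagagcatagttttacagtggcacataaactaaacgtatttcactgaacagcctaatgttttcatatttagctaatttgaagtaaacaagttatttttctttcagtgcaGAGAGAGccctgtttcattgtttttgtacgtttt
CG11050: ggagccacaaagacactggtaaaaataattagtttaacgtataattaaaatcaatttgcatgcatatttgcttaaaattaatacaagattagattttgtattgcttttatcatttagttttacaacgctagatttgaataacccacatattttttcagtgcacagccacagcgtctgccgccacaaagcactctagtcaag
CG9663: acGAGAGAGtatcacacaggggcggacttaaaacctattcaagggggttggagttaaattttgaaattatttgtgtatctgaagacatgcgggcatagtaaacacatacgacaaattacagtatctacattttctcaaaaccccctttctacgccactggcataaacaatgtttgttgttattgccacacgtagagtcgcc
Tlk: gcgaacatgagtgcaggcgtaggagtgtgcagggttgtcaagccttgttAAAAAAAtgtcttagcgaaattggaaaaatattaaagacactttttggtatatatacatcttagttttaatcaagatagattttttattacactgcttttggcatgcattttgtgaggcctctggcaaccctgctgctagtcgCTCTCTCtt
Raf: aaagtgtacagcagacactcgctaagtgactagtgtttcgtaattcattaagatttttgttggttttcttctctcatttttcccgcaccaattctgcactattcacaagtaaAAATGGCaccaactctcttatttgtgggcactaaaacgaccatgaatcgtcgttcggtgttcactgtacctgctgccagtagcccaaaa
Spn: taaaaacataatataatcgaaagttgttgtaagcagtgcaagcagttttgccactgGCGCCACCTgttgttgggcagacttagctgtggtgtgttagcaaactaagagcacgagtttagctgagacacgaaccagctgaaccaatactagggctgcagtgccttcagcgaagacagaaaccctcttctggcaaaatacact
trh: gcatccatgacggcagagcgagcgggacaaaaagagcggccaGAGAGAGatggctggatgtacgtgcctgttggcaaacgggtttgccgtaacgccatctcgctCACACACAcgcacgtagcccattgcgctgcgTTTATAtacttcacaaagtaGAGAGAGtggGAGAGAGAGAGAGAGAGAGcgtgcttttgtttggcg
Stt3A: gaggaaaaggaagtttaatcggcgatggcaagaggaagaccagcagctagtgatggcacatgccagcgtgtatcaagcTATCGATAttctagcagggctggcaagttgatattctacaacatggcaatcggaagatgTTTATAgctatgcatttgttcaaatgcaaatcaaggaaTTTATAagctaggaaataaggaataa
Csk: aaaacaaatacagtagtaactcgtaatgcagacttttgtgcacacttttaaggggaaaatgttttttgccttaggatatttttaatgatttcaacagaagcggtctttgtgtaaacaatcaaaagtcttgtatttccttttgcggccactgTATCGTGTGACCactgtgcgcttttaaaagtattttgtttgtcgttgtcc

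The window in ush held a TATAAA match and a CGATA match, and the window in CG11050 held none of the 12 words. The windows in Lk6 and CG9663 each held 1 GAGAGAG match more than 50 bases from the summit, while the window in trh held several, as well as a CACACACA run. The Spn window held the 9 bases of the CTCF core 1 time. In Stt3A the Dref word lay near the summit.

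The strongest intronic peak was among the strongest peaks of the whole list. It lay in the first intron of ush, which encodes a FOG-family zinc finger cofactor of GATA factors, and its authors' signal of 1634 ranked 1 of 2964. In replicates 1, 2 and 3 its signal was 476, 600 and 567, at rank 2, 1 and 1. The peak in the first intron of Lk6, a kinase that phosphorylates the translation factor eIF4E, had a signal of 1202 and ranked 5, 3 and 2 in the replicates. The peak in CG11050 (952.4) lay in a second intron of only 140 bp, so that its 319 bp ran into the flanking exons, and it ranked 6, 9 and 6. All 3 peaks were thus near the top in every replicate.

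The 20 intronic peaks of highest signal all lay among the 2964 strongest candidates of each of the 3 replicates. Their lowest rank percentiles, where 100 is the strongest candidate of a list, were 98.7, 99.7 and 99.3. Besides ush and Lk6, their hosts included the transcription factor gene Adf1 (691.7), the MAP kinase pathway gene Raf (593.2), the chromatin kinase gene Tlk (521.7), the afadin gene cno (479.9), the KH-domain gene mub (461.7), the phospholipase C gene norpA (457.5), NFAT (453.6), the acyltransferase gene LPCAT (442.2), the ecdysone receptor gene EcR (433.7) and Trl (412.5), which encodes the GAGA factor. The other hosts were CG11050, CG9663 (804.8), CG32772 (682), CG3726 (510.2), CG9837 (450.6), CG32486 (403.2) and, with 2 peaks, the overlapping pair HmgD and HmgZ. The peak in cno stood apart, at rank 359 in replicate 1 against 34 and 38 in replicates 2 and 3. Of these 20 peaks, 16 lay in a first intron and 7 on X. All 20 were narrower than the 404 bp that was the usual peak width, as were 42 of all 526 (7.98%, against 8.26% of promoter peaks).

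**Figure D1:**
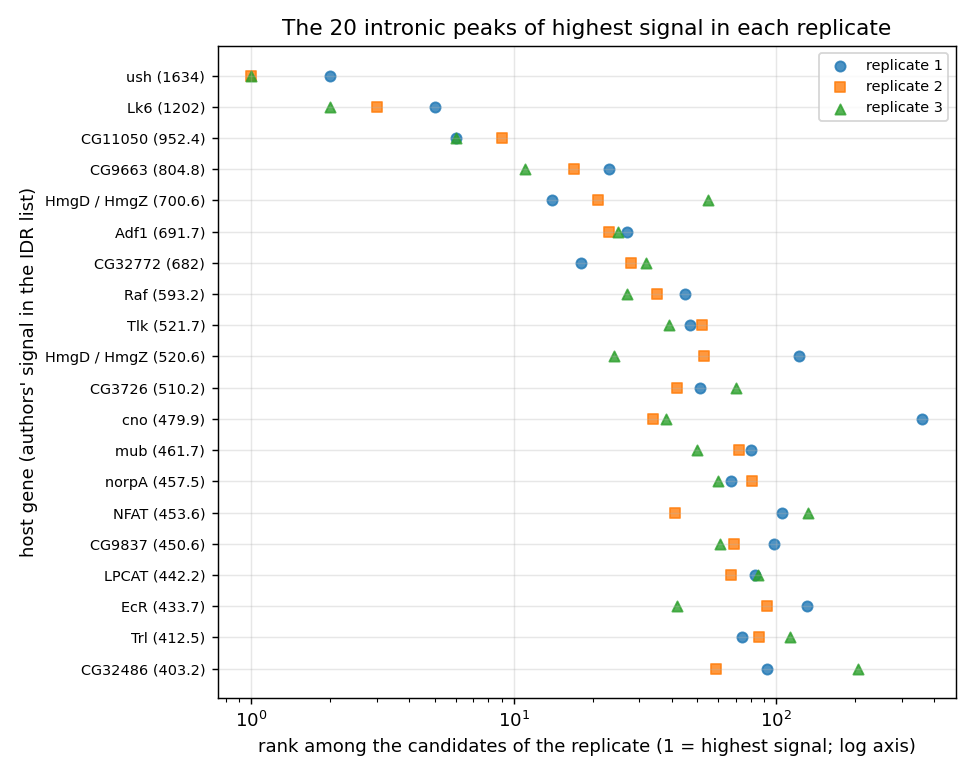
Rank of the 20 intronic peaks of highest signal among the candidates of each replicate (horizontal log axis, 1 is the strongest; circles, squares and triangles are replicates 1, 2 and 3), by host gene with the authors' signal in the IDR list. Ranks run from 1 to 359, and the highest, for cno in replicate 1, lies far from that gene's other 2.

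The genes for HmgD and its close relative HmgZ overlap, and 5 intronic peaks lay in them. Both genes held the peaks at signals of 700.6, 520.6 and 368.6. A further peak in HmgD alone had a signal of 118.5, and one in HmgZ alone had 206.8. The peak at 700.6 ranked 14, 21 and 55 in the replicates, and that at 520.6 ranked 122, 53 and 24, so the order of the 2 differed between replicates. The line carries a tagged copy of HmgD, and whether added copies of the locus entered these signals was not tested. Dsp1, another HMG-box gene, held 1 intronic peak of signal 118.1, at percentiles 90.7, 88.3 and 77.6.

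Over all 526 peaks the median signal was 153 (quartiles 128.7 and 200.8), beside 161 at promoter peaks and 151 at intergenic ones. The signal helped choose the list and is given only as a description. The weakest intronic peak, in mgl, had a signal of 114.9, and the strongest intronic candidate that was not kept, in Kank, had 114.6. At the distance limit, the nearest summit kept was 503 bp from a TSS, in Pitslre, and one at 500 bp, by MFS10, was left out.

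The share of intronic candidates kept was below that of all candidates of the pooled list. Of 8337 intronic candidates in the pooled list, 526 were in the IDR list, 6.31%, against 9.88% of all 30000. Among the 2964 strongest candidates of replicates 1, 2 and 3, 467, 561 and 550 were intronic by the same rule, that is 15.8%, 18.9% and 18.6% (17.7% ± 1.73, SD, n = 3). Pooled candidates found among the strongest of 2 replicates included 314, 248 and 301 intronic ones when replicate 1, 2 or 3 was left out. The 2964 strongest were 10.5% of the list of replicate 1 and 9.88% of each of the other lists.

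Between intronic and promoter peaks, the share found among the strongest candidates of single replicates differed by less than the spread between replicates. A summit within 200 bp was present in 507, 522 and 514 of 526 in replicates 1, 2 and 3, and in all 3 for 495. Among the 2964 strongest candidates were 358, 418 and 369, or 68.1%, 79.5% and 70.2%, and 75.5%, 77.3% and 70.3% for promoter peaks. The mean difference, intronic minus promoter, was -1.80 percentage points ± 4.98 (SD, n = 3) with no common direction (exact sign-flip permutation test, two-sided, p = 0.75). With 3 replicates this test cannot go below 0.25 and so cannot reach 0.05. The median rank percentiles were 93.2, 95 and 94.5, against 94.8, 94.9 and 94.8 at promoters (exact permutation p = 0.5). Of the 526, 220 (41.8%) were among the strongest of all 3 replicates, 185 of 2, 115 of 1 and 6 of none, and for promoter peaks the share in all 3 was 44.8%. The IDR list was made from these same replicates, so these shares describe it and do not test it.

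Most of the peaks lay in first introns. A first intron of at least 1 transcript held 387 of 526 summits (73.6%), against 60.6% of the 7811 intronic candidates that were not kept and 43.4% of the 52.8 Mb of intron sequence that satisfied the rule (called eligible below). In the replicates, 71.9%, 73.4% and 73.1% of the intronic candidates among the strongest lay in first introns, against 54.4%, 60.9% and 60.4% of the others. The groups did not overlap and the mean difference was 14.3 percentage points ± 2.84 (SD, n = 3), in the same direction in 3 of 3 (exact permutation p = 0.25, the smallest possible). The share was alike in the stronger and the weaker 263 peaks, at 73.4% and 73.8%.

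The peaks also lay nearer to a TSS than other intronic candidates did. The median distance was 1842 bp, with quartiles of 939.2 and 4533 bp and a range of 503 to 34974 bp. In the replicates the medians were 1871, 1826 and 1882 bp, against 4015, 3010 and 2766 bp for the remaining intronic candidates. The mean difference was -1404 bp ± 658 (SD, n = 3), shorter in 3 of 3 (exact permutation p = 0.25). By distance, 149 peaks lay at over 500 to 1000 bp, 135 at over 1000 to 2000 bp, 123 at over 2000 to 5000 bp, 75 at over 5000 to 10000 bp and 44 farther away. First introns start near a TSS, so the position in a first intron and the distance are not separate observations.

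**Figure D2:**
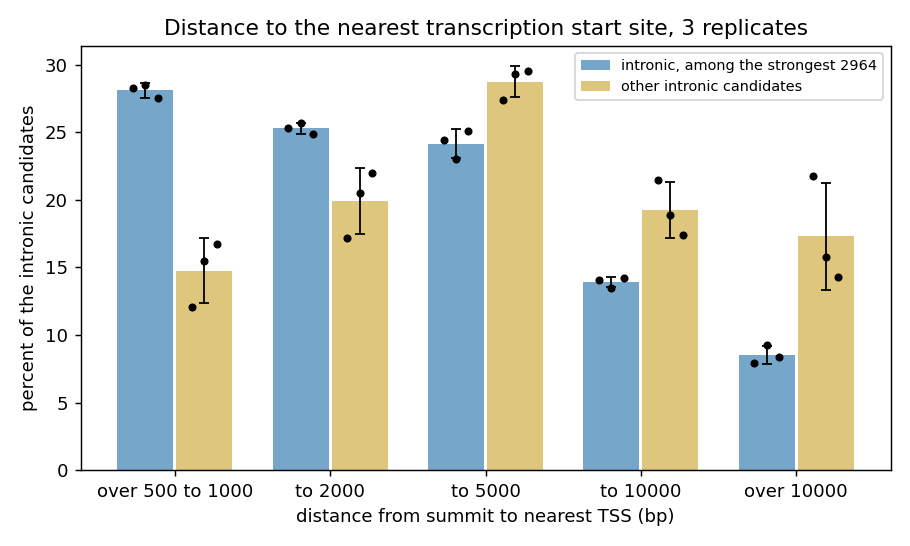
Share of intronic candidates by distance from summit to nearest TSS, for those among the 2964 strongest of a replicate and for the others. Bars are means of 3 replicates, error bars are SD and points are replicates. In the bin over 500 to 1000 bp the strongest held 28.3%, 28.5% and 27.5% and the others 12.1%, 15.5% and 16.7%.

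The introns were long, but not longer than those around the intronic candidates not kept. The intron around the summit had a median length of 8140 bp, from 64 to 110416 bp, beside 9360 bp for the intronic candidates not kept. The median summit was 1990 bp past the 5' splice site, 36.38% of the way along, against 2847 bp and 41.67% for those not kept. For 405 peaks the nearest TSS was that of a host gene, and the summit was downstream of it in 288 and upstream of it, and so between alternative starts, in 117. For 121 peaks the nearest TSS belonged to another gene. There were 79 peaks with another intronic peak within 2000 bp, and 43 inside more than 1 gene.

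Base composition moved with the replicates. The median GC content within 100 bp of the summit was 38.3%, 41.8% and 44.3% at intronic candidates among the strongest of replicates 1, 2 and 3, and 43.3%, 44.3% and 44.8% at the others. The difference was negative in 3 of 3, at -2.65 percentage points ± 2.24 (SD, n = 3; exact permutation p = 0.25). Promoter candidates among the strongest showed the same order of replicates, with 39.3%, 42.8% and 44.8%. In the IDR list the median was 40.8% at intronic peaks, 42.3% at promoter peaks and 40.3% in windows tiled over eligible introns.

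Of the 3 words of housekeeping promoters, those of Dref and M1BP were nearly absent from the intronic peaks, and CGATA was not. The Dref word TATCGATA occurred at 3 of 526 (0.57%), against 11.1% of promoter peaks. In the replicates it was at 0.214%, 0.535% and 0.182% of intronic candidates among the strongest, and at 12.2%, 9.48% and 8.8% of promoter ones. The M1BP word GGTCACAC, of a zinc finger factor of paused promoters, was at 4 of 526 (0.76%) against 9.73%. Its replicate values were 0.857%, 0.713% and 0.727% against 9.15%, 8.46% and 7.86%. The BEAF-32 word CGATA, part of the Dref word and bound by an insulator protein, was at 22.8% of intronic peaks and 45.3% of promoter peaks, beside 20.3% of tiled intron windows and 19.6% of the intronic candidates not kept. In the replicates CGATA was at 23.1%, 23.9% and 24.7% of intronic candidates among the strongest, 20%, 20.3% and 20.6% of the other intronic ones and 49.2%, 43% and 40.7% of promoter ones. Each difference from promoters had the same sign in 3 of 3 replicates. The exact permutation p was 0.25 for each, and 0.25 after Benjamini-Hochberg adjustment over the 12 words.

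GAGA and CTCF words were more frequent than at other intronic candidates in all 3 replicates. GAGAGAG, the element bound by the GAGA factor encoded by Trl, was at 68 of 526 intronic peaks (12.9%), against 6.13% of the intronic candidates not kept, 6.84% of promoter peaks, 7.11% of intergenic peaks and 2.71% of tiled windows. In the replicates it was at 7.92%, 12.3% and 20%, against 4.44%, 5.79% and 6.02% of the other intronic candidates, a difference of 7.99 percentage points ± 5.40 (SD, n = 3; exact permutation p = 0.25, 0.429 adjusted over the 12 words). The shares had the same order as the GC content of the replicates given above, whose part in it was not tested. AGGTGGCGC, a core of the motif of the insulator protein CTCF, was at 11 of 526 (2.09%), against 0.346% of those not kept, 0.997% of promoter peaks, 5.14% of intergenic peaks and 0.103% of tiled windows. In the replicates it was at 3.85%, 1.96% and 1.64% against 0.296%, 0.391% and 0.305%, with no overlap, a difference of 2.15 ± 1.22 (SD, n = 3; exact permutation p = 0.25, 0.429 adjusted). Within the intronic peaks, the CTCF word was at 3.80% of the stronger 263 and 0.38% of the weaker 263, and the GAGA word at 10.3% and 15.6%.

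Of the other words, TATAAA and GCCATTT differed from the other intronic candidates in the same direction in all 3 replicates. So did TGACTCA, by a mean of only 0.267 percentage points. TATAAA was at 22.2% of intronic peaks, against 16.4% of those not kept, 18.6% of promoter peaks and 24% of tiled windows. In the replicates it was at 27.6%, 23% and 16.7% against 19.5%, 16.6% and 15.5% of the other intronic candidates, a difference of 5.26 percentage points ± 3.56 (SD, n = 3; exact permutation p = 0.25, 0.429 adjusted). CACACACA was at 13.1% of intronic peaks, against 8.90% of those not kept and 6.89% of promoter peaks, yet in replicate 1 it did not exceed the other intronic candidates (7.92% against 8.19%). GCCATTT, which holds the core bound by the Polycomb recruiter Pho, was less frequent, at 15 of 526 (2.85%) against 6.35% of those not kept, 5.70% of promoter peaks and 6.51% of tiled windows. In the replicates it was at 2.36%, 3.21% and 3.27% against 7.12%, 6.41% and 6.64% of the other intronic candidates, a difference of -3.78 ± 0.855 (SD, n = 3; exact permutation p = 0.25, 0.429 adjusted). AAAAAAA was at 21.3%, against 18% of those not kept and 19.7% of tiled windows, and the sign of its difference from other intronic candidates varied between replicates. The words AGATAAG of GATA factors (3.23%), TGACTCA of AP-1 (2.28%) and CAGGTAG of the early activator Zelda (1.14%) lay within 1 percentage point of their shares at the intronic candidates not kept. None of the 12 words was at 151 of the 526 summits. A word match is a description of the letters and says nothing about whether the factor was bound.

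**Figure D3:**
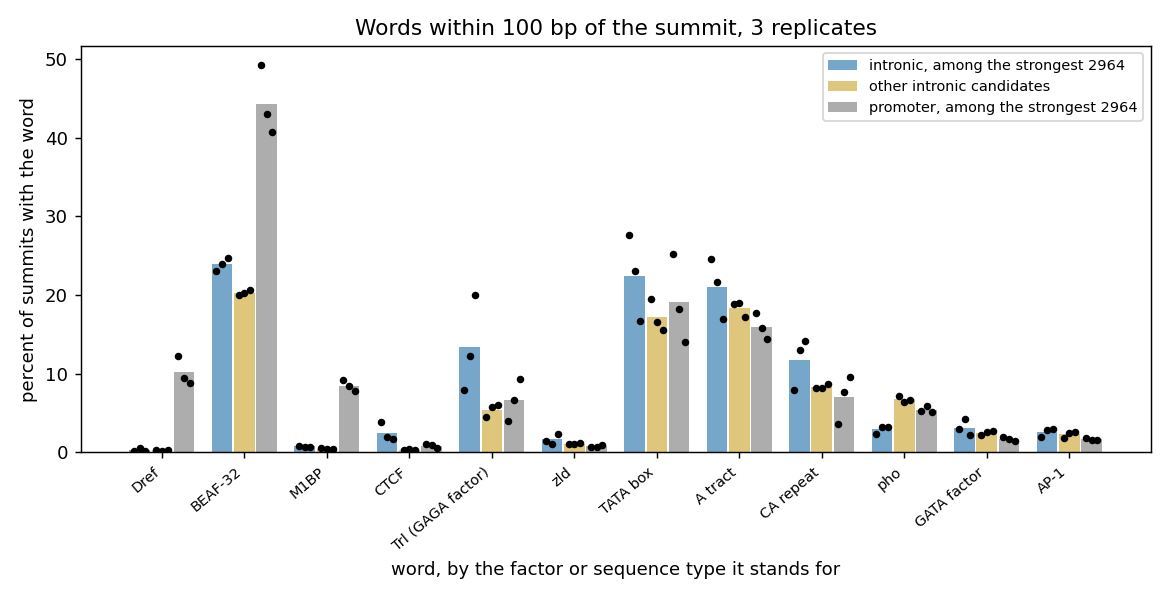
Percent of summits with each word within 100 bp, named by the factor or sequence type it stands for. Bars are means of 3 replicates and points are replicates, for intronic candidates among the 2964 strongest, other intronic candidates and promoter candidates among the strongest. The Dref and M1BP words stand out at promoters, and the GAGA factor word is highest at intronic candidates in each replicate, from 7.92% to 20%.

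Intronic peaks were denser on X. X held 137 of the 526, 13.4 per Mb of eligible intron, against 389 on the autosomes, 9.13 per Mb. In the replicates the density was 12.6, 13.2 and 12.7 per Mb on X (12.9 ± 0.315, SD, n = 3) and 7.93, 9.99 and 9.85 on the autosomes (9.26 ± 1.15). X made up 27.6%, 24.1% and 23.6% of the intronic candidates among the strongest and 17.1%, 17.3% and 17% of the others, a difference of 7.96 percentage points ± 2.23 (SD, n = 3), positive in 3 of 3 (exact permutation p = 0.25). Of the major arms 3L was lowest, at 7.41 per Mb, and chromosome 4 held 1 peak. The GAGA word was at 12 of 137 peaks on X (8.76%) and at 56 of 389 on the autosomes (14.4%), whereas among intronic candidates not kept it was at 8.38% on X and 5.65% on the autosomes. The embryos were of mixed sex, so X and autosomes differed in copy number, and the control that the authors used was not analysed here.

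**Figure D4:**
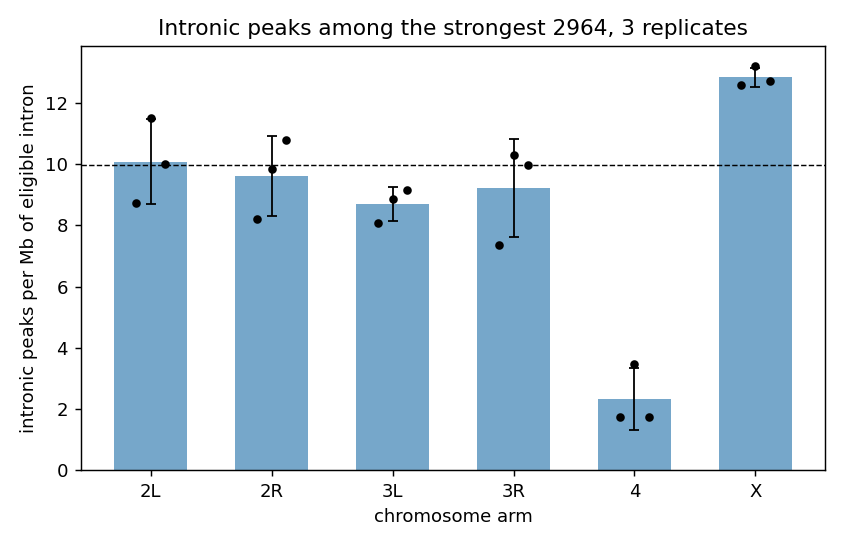
Intronic candidates among the 2964 strongest of each replicate, per Mb of eligible intron, by chromosome arm. Bars are means of 3 replicates, error bars are SD, points are replicates, and the dashed line is the mean over all arms, 9.96 per Mb. On X the replicates lie between 12.6 and 13.2, above all points of the other arms.

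The 526 peaks lay in 416 host genes, 4.36% of the 9534 genes with eligible intron. Of the hosts 401 were protein-coding, 14 noncoding and 1 a pseudogene. There were 324 hosts with 1 peak, 62 with 2 and 30 with 3 or more, and the last held 112 peaks. Raf had the most, 8 peaks in 34.1 kb of eligible intron with signals from 131.2 to 593.2, and 6 of them were among the strongest of all 3 replicates. Tlk, tara and lncRNA:CR44357 had 7 each, CG1677, which shares introns with that noncoding RNA, had 6, and Hr4, mam and ush had 5. The 7 peaks in tara, a gene of the trithorax group, ran from 118.8 to 230.9, and the 5 in mam, the Notch coactivator gene, from 123.6 to 173.9. The 5 in ush ran from 122.2 to 1634, and 2 of them were among the strongest of all 3 replicates.

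Hosts with 4 peaks were CG32264, Eip75B, HmgD, HmgZ, Sin3A, lncRNA:CR32773, sbb and sick, among them genes for the corepressors Sin3A and Sbb. Those with 3 were Antp, CG10543, CG43759, CG9837, CHES-1-like, COX7AL2, Dys, MSAmiP, NFAT, arg, lncRNA:iab8, shn, tou and trx. Among hosts with 3 or more, peaks lay closest together in CG9837, with 11.1 per 10 kb of eligible intron, and most widely in lncRNA:CR32773, with 0.214. MSAmiP and lncRNA:iab8 overlap in the bithorax complex and share their 3 peaks. In trx, the peak at 166.1 was at percentiles 96.1 and 97.8 in replicates 1 and 2 and had no match in replicate 3, while the peaks at 151 and 121.3 were at 14.5 and 20.1 in replicate 1 and at 86.8 or above in the other replicates. Thus 1 of the 3 peaks was unmatched in replicate 3, and the other 2 were low in replicate 1.

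Host genes often had an HmgD peak at their own promoter as well. Such a peak was in the IDR list for 204 of 416 hosts (49.0%), against 20.6% of the other genes with eligible intron. In the replicates the share was 44.9%, 50.2% and 51% of hosts and 22.6%, 19.6% and 18.4% of the other genes, a difference of 28.5 percentage points ± 5.48 (SD, n = 3; exact permutation p = 0.25). Hosts had more intron, with a median of 12.4 kb eligible against 0.453 kb over all such genes. Within genes of 1 to 5 kb of eligible intron the shares were 46.8% of hosts and 24.2% of others, within 5 to 20 kb 46.7% and 22.7%, and above 20 kb 54.2% and 21.6%. The difference was thus present at each of these sizes. The list was also rebuilt from pooled candidates among the strongest of both remaining replicates, which keeps fewer peaks. The share of hosts was then 36.9% without replicate 1, 27.1% without replicate 2 and 31.3% without replicate 3. With the 1482 stronger IDR peaks it was 28.7%. The share of the other genes was not recomputed for these lists, so the difference from them is not known there.

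Among developmental gene lists, peaks were counted in the introns of homeotic, ecdysone-response, dorsoventral and signalling genes. None were counted in the segmentation genes, which had only 0.158 Mb of eligible intron. Of 12 homeotic genes with eligible intron 6 were hosts, with 10 peaks, 25.4 per Mb against 9.96 per Mb over all genes. They were Antp (strongest signal 204.1), Abd-B (197.8), pb (191.4), hth (169.9), abd-A (150.5) and Ubx (148), which specify segment identity or, for hth, help Hox proteins bind. Of these 6 hosts, 1 had an IDR peak at its promoter. The share was 49% over all hosts and, as a mean of the replicates, 20.2% of the other genes with eligible intron. With 6 genes this is not read as a difference. Of 19 nuclear receptor and ecdysone-response genes 8 were hosts, with 15 peaks (26.7 per Mb). They were EcR (433.7), Hr3 (293), Hr4 (276.3), Eip74EF (174), Eip75B (173.7), br (161.4), ftz-f1 (138.1) and Hr39 (137.4). The peak in EcR was at percentiles 99.5, 99.7 and 99.9, while that in Hr39 was at 52.1, 94.9 and 95.9.

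Of 15 dorsoventral and amnioserosa genes 4 were hosts, ush, the EGF-receptor ligand gene vn (165.4), the BMP ligand gene dpp (131.6) and the BMP inhibitor gene sog (121.4), at 34.5 peaks per Mb. Of the 8 peaks in this list, 5 were in ush. Of 29 signalling genes 6 were hosts, at 24.9 per Mb: Raf, the insulin receptor gene InR (315.7), the Wnt receptor gene fz (293.7), the Smad gene Mad (233.4), N (198), which encodes Notch, and the BMP receptor gene tkv (115.7). Raf held 8 of the 14 peaks. The 22 segmentation genes with eligible intron held no peak in 0.158 Mb, in the IDR list or among the strongest candidates of any replicate. At the density over all genes, 9.96 peaks per Mb, so little sequence would hold few peaks, and the absence is not read as depletion. The Polycomb list held 8 peaks in 0.128 Mb and the growth list 6 in 0.112 Mb.

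Chromatin, growth, cytoskeleton and HMG-box genes showed counts per Mb above those over all genes. The median eligible intron per gene in these lists was 0.908, 0.954, 4.54 and 5.82 kb. Of 28 Polycomb, trithorax and insulator genes 5 were hosts, with 8 peaks in 0.128 Mb (62.6 per Mb): Trl, osa (215.1) of the Brahma remodelling complex, psq (194.3), trx (166.1) and mod(mdg4) (122.2). In the replicates this list had 39.1, 93.8 and 70.4 peaks per Mb, a wide spread from few peaks. Of 18 insulin, TOR and growth genes 5 were hosts, Lk6, InR, Akt (279.4), Mnt (130.5) and Myc (118.2), at 53.4 per Mb. Of 20 cytoskeleton and trafficking genes 6 were hosts, among them the cofilin gene tsr (275.1) and Rab11 (272), at 33 per Mb. Of 14 HMG-box genes 3 were hosts, HmgD, HmgZ and Dsp1, with 6 peaks (39.4 per Mb). Of these peaks, 5 lay in the overlapping HmgD and HmgZ, where the tagged copy was noted above, and the other was that in Dsp1 (118.1).

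Besides segmentation genes, 4 lists had fewer peaks per Mb than all genes together. In the order below, 23.1%, 22.7%, 9.09% and 15.8% of their genes were hosts, all above the 4.36% over all genes. Their median eligible intron per gene was 35.1, 30.8, 14.1 and 14.3 kb, against 0.453 kb over all genes. Of 26 axon guidance and adhesion genes 6 were hosts, with 6 peaks in 1.38 Mb (4.35 per Mb), the strongest in dlp (210.5), which encodes a glypican. Of 22 RNA-binding regulators 5 were hosts, with 5 peaks in 1.31 Mb (3.81 per Mb), the strongest in the translational repressor gene brat (188.9). Of 22 mesoderm and muscle genes 2 were hosts, the myoblast fusion genes kirre (263.6) and mbc (118.5), at 4.85 per Mb. Of 19 neural transcription factor genes 3 were hosts, lola (206.4), grh (144.8) and pnt (143.3), with 3 peaks in 0.395 Mb (7.59 per Mb). In each replicate these 4 lists lay below, and the 8 lists with hosts described before them lay above, the density over all genes. These counts were not tested against other lists. Raf, ush, and HmgD with HmgZ held most of the peaks in the signalling, dorsoventral and HMG-box lists. The Polycomb and growth lists, with the highest counts per Mb, had no peak in these genes. The median eligible intron per gene was 17 kb in the homeotic list and 20.7 kb in the ecdysone-response list, both above the density over all genes. Peaks lay nearer to a TSS than other intronic candidates did, and the part of intron length in counts per Mb was not tested.

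**Figure D5:**
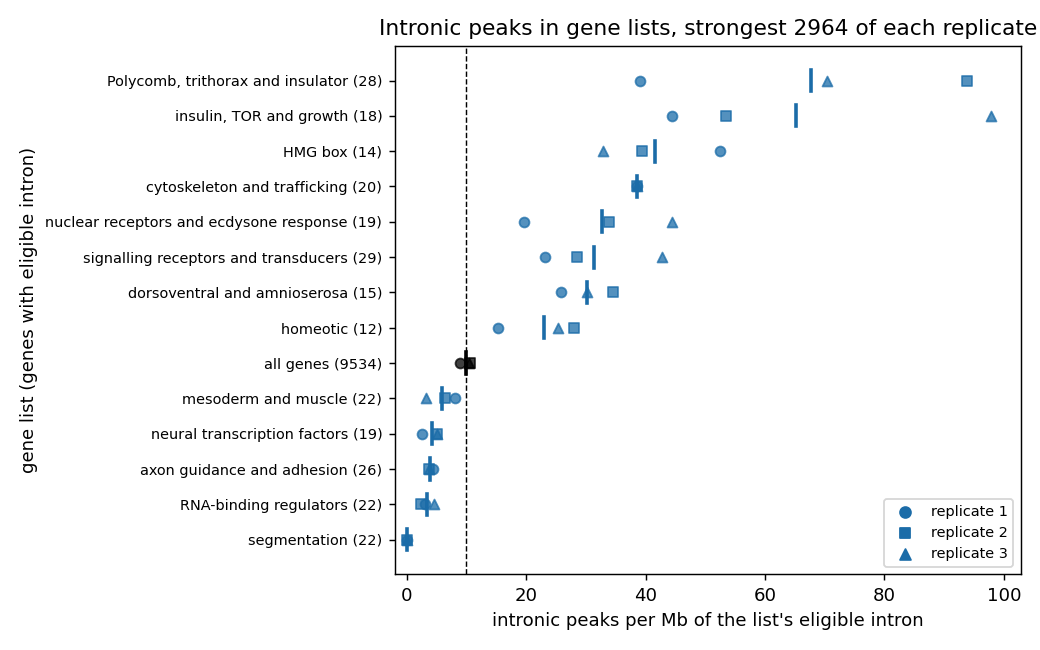
Intronic candidates among the 2964 strongest of each replicate, per Mb of eligible intron of each gene list (circles, squares and triangles are replicates 1, 2 and 3; vertical ticks are means), with the number of genes with eligible intron in brackets. The dashed line is the mean over all genes, 9.96 per Mb. Of the 13 lists, 8 lie above it in every replicate and 5 below it.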

How the data were processed

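The authors deposited narrowPeak lists on dm6: per the file descriptions, candidate lists of 28193, 30000 and 30000 peaks for replicates 1, 2 and 3, each from 1 alignment and a control, a pooled list of 30000, and an IDR list of 2964. Aligner, caller and threshold of that step are not stated there or in the labels. The signal per peak is the authors' deposited value, used only within a list. The deposited −log10 q was not used for comparisons. No read counts are in the lists used, so depth is unknown. The p-values rest only on the 3 replicates, and in the exact permutation test 3 differences of the same sign give 0.25 whatever their size or spread. Per the labels, chromatin was sonicated to 200 to 800 bp.

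Summits were placed against the Ensembl 115 annotation (transposable elements left out) and Release 6 sequence. Each replicate was compared through its 2964 candidates of highest signal. Summits matched when mutually nearest within 200 bp. Eligible intron is sequence more than 500 bp from every TSS, inside a gene and in no exon. The 12 words were searched on both strands within 100 bp of the summit, and tiled windows of the same length gave their share over introns. CGATA lies within TATCGATA. Differences over replicates were tested by an exact two-sided sign-flip permutation test, with Benjamini-Hochberg adjustment over the words.

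The members, 13 gene lists, words and tests were chosen with earlier results of these data known. Of list symbols, 29 of 30 signalling, 18 of 19 insulin and 22 of 23 RNA-binding symbols were matched, and all in the other lists. Genes named are hosts of the 20 peaks of highest signal, hosts with 3 or more peaks, the host with the strongest peak of each list, and HmgD, HmgZ and Dsp1. Other list members, and the peaks at the limits of the rule, were named after their values were seen. Sequences shown follow peak signal, outside arm 2R, and windows chosen for the Zelda, GATA and AP-1 words are left out. Alternatives were other TSS margins (250 and 1000 bp), protein-coding genes only, the 1482 stronger IDR peaks, leaving out each replicate, matching at 100 bp or by 50% reciprocal overlap, and windows of 50 and 200 bp. The scripts (Python 3.11.15, numpy 2.4.6, pandas 2.3.3, scipy 1.17.1, matplotlib 3.10.9) were tested on simulated data.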

Additional observations from a re-analysis of the deposited data

How the results depend on the processing

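Of 294 values recomputed under alternatives, 271 were counted as unchanged. For differences between groups this meant the same sign, whatever the size. GGTCACAC against promoters, for instance, went from -7.72 to -4.23 percentage points with windows of 50 bp. For counts it meant a move of no more than 1.5 times, and for shares without a comparison no more than 1 SD of the replicates. The 1482 stronger IDR peaks held 241 intronic peaks, and leaving out 1 replicate, with the pooled candidates among the strongest of both others as the list, left 248 to 314, since fewer peaks were kept. The share of hosts with a promoter peak was 40.6% at a TSS margin of 250 bp, 54.7% at 1000 bp, 28.7% with the stronger peaks and 27.1 to 36.9% without 1 replicate. The share of the other genes was not recomputed beside these. The intronic share of the strongest candidates was 21.3% at 250 bp and 12.8% at 1000 bp, as the margin itself moves peaks between classes. Differences in percentage points that changed sign were those against other intronic candidates for TATCGATA (-0.117 at 1000 bp, -0.0106 with protein-coding genes only, -0.134 to 0.0933 without 1 replicate), GGTCACAC (-0.14 at 1000 bp), and, with the stronger peaks, CAGGTAG (-0.627) and TGACTCA (-0.174). Against promoters, CAGGTAG changed with the stronger peaks (-0.0992), TATAAA (-1.43) and GC (1.16) with windows of 200 bp, and the share among the strongest with the stronger peaks (1.67) and without 1 replicate (-3.78 to 0.997). For these sign changes the cause was not tested. With 1 group there are no samples to pair across groups, and all differences were taken within a replicate. No test here could pass 0.05, so stability of p-values says nothing. Depth is unknown, and neither a read-level background nor the control could be set beside the peaks.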

Other observations

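Ranking all 2080 words of 6 letters (each with its reverse complement) by the difference in share between the 526 intronic peaks and the 7811 intronic candidates not kept put ACAGTG first. It was at 129 of 526 summits (24.5%), against 11.2% of those not kept, 17.3% of promoter peaks, 16.6% of intergenic peaks and 7.40% of windows tiled over eligible introns. In replicates 1, 2 and 3 it was at 26.6%, 25.3% and 18.2% of intronic candidates among the strongest and at 11%, 10.2% and 10.3% of the others. The groups did not overlap, but the word was picked from 2080 for this difference on the same summits, so no test is given. The overlapping words CAGTGC (21.5% against 12.1%) and ACTGTG (18.6% against 10.1%) were also among the first 11. Of the 129 peaks with ACAGTG, 7 held GAGAGAG too, beside 68 of all 526 intronic peaks (12.9%). ACAGTG was at 25.1% of the stronger and 24% of the weaker 263 intronic peaks and at 32% of the 100 of highest signal, and the window in Lk6 shown above has 1 match. More than 1 copy was at 4.37% of intronic peaks and 0.973% of those not kept.

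Noncoding hosts held some of the stronger peaks in the bithorax complex. The noncoding RNA gene lncRNA:bxd held peaks of signal 286.9 and 159.5, at percentiles 91.7, 98.3 and 99.8 and 82.6, 96.2 and 93.8 in replicates 1, 2 and 3, and the strongest peak shared by MSAmiP and lncRNA:iab8 had a signal of 232.4, at 92.7, 96.7 and 99.5. In all 3 cases replicate 1 was lowest. The 1 peak in Ubx, at 148, was likewise lowest in replicate 1, at 86.2 against 96.3 and 91.6. Over all intronic peaks the median percentile was also lowest in replicate 1, at 93.2 against 95 and 94.5, so this order was not particular to the complex.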
